A study of Mus musculus with 6 samples.

Results

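The CXC chemokines are a family of small secreted proteins that guide leukocytes. The 9 described here, in monocytes sorted from mouse melanomas, are Cxcl1, Cxcl2 and Cxcl3, Cxcl9 and Cxcl10, and Cxcl14, Cxcl16, Pf4 and Ppbp. They were chosen by gene symbol, and all 9 were among the 18341 genes of the table. C57BL/6 mice carried subcutaneous B16.F10 melanomas grown either from cells overexpressing BAFF, the B cell activating factor, or from control cells. Monocytes were taken from the tumours by sorting on day 13, giving 3 libraries for BAFF tumours and 3 for control tumours. The labels give no vector, promoter, clone number, sort markers or age, and name the sample source only as B16.F10. Nothing says that libraries of 1 group are different mice, so p-values measure only the spread between these samples, which may be technical.

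Chemokines in which glutamate, leucine and arginine (ELR) precede the CXC motif act on the receptor Cxcr2 and attract neutrophils. Their genes are induced through NF-kB by microbial products, interleukin 1 and TNF. Cxcl9 and Cxcl10 lack that motif, are induced by interferons, and attract activated T cells and NK cells through Cxcr3. Monocytes and macrophages are known sources of both kinds.

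The sequences before the gene starts are shown first because kappaB and interferon elements are the known routes of induction of these genes. RefSeq's promoter windows, in the GRCm38.p6 build, held 8 of the 9 genes, all but Cxcl16. The longest run of letters that the 250 bases before the start of Cxcl1, Cxcl2 and Cxcl3 have in common is GGGAATTTCCC, a kappaB site. On either strand it occurs in 14 of 32851 such windows (0.0426%). The wider form GGGNNNTTC, which overlaps it, occurs in 11.8% of windows. Capitals mark matches to either form on either strand in the last 120 bases before the start. The genes lie on the plus strand, at chr5:90891125-90891244 for Cxcl1, chr5:90903779-90903898 for Cxcl2 and chr5:90785981-90786100 for Cxcl3.
Cxcl1: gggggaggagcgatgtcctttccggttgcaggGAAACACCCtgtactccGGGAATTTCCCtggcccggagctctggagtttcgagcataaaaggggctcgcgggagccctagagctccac
Cxcl2: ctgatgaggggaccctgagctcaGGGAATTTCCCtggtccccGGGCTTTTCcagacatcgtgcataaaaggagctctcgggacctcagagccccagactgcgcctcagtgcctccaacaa
Cxcl3: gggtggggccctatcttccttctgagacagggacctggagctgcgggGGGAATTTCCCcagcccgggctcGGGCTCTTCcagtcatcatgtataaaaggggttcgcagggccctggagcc

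The interferon-stimulated response element core was searched as GAAANNGAA, which 7.13% of windows hold on either strand. Cxcl9 (minus strand, chr5:92328080-92328259, 180 bases) and Cxcl10 (minus strand, chr5:92348890-92349139, 250 bases) each hold 1 match, which comes first in capitals, followed by their matches to GGGNNNTTC. Of the other members with a window, Cxcl14 also holds 1 match to GAAANNGAA.
Cxcl9: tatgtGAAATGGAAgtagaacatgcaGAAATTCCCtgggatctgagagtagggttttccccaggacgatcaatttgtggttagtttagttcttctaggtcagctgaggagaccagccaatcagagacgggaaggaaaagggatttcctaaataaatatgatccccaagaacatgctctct
Cxcl10: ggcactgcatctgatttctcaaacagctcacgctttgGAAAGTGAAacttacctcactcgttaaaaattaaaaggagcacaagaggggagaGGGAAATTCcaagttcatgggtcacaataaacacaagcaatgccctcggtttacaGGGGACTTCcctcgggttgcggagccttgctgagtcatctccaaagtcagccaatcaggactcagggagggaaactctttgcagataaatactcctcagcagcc
An interferon gamma element was searched only in the form TTCNNNGAA (7.02% of windows). That form was found in Cxcl14 and not in the windows of the other 7 genes. A match is a description of letters, not of binding. In RefSeq's order Cxcl5, Ppbp, Pf4, Cxcl3, Cxcl15, Cxcl1 and Cxcl2 follow each other on chromosome 5. Cxcl9 and Cxcl10 lie elsewhere on that chromosome on either side of Art3, Cxcl16 is on chromosome 11 and Cxcl14 on chromosome 13.

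Values are deposited CPM (reads per 1e6 of the library total) divided by a size factor that brings libraries to a common scale, called scaled CPM. By the steps between low values, 1 CPM stood for 9.65 to 27.6 reads in BAFF tumour libraries and for 4.72 to 27.3 in controls. The listed genes held 61.1% to 66.1% of the total in BAFF tumour libraries and 39.8% to 65.6% in controls. A ribosomal RNA gene, CT010467.1, was at 693 to 5880 CPM in BAFF tumours, against 299 in control tumour 1 and 27017 and 43052 in control tumours 2 and 3. The myeloid lysozyme gene Lyz2 was abundant in every library, at 4434, 5238 and 4921 scaled CPM in BAFF tumours and 4553, 2979 and 4353 in controls. In bulk samples such as these, fewer cells of a type and less RNA per cell cannot be told apart.

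Of the 9 chemokines only Cxcl2 passed the test, and it was higher in BAFF tumours. The other ELR genes Cxcl1 and Cxcl3 did not pass, and neither did Cxcl9 or Cxcl10. The count of 1 called among 8 tested chemokines stands beside 17.1% of all 12824 tested genes called (7.18% higher and 9.91% lower), a share near which 1 of 8 is no result about the family. On the deposited scale, without size factors, the count was also 1, beside 5.31% of all genes (1.81% higher and 3.5% lower). The median log2 fold change of the 8 was 0.02, and that of all tested genes 0.0086.

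Cxcl2, also known as MIP-2, is a main neutrophil attractant of mouse macrophages. Libraries 1, 2 and 3 of each group stood at 1051, 1043 and 749 scaled CPM in BAFF tumours and 586, 486 and 583 in controls. Every BAFF tumour library lay above every control, a separation that 35.2% of all tested genes showed in either direction. The means were 948 ± 172 in BAFF tumours and 552 ± 56.9 in controls (SD, n = 3 each). This was a log2 fold change of 0.77 ± 0.15 (SE), with a limma adjusted p of 0.00401. As deposited, Cxcl2 was at 1123, 1191 and 799 CPM in BAFF tumours and 742, 439 and 391 in controls, and its log2 fold change was 1.02 ± 0.33 (limma adjusted p = 0.0361). With size factors the call held in 6 of 6 fits that left out 1 library (adjusted p at most 0.0261). When control tumours 2 and 3, rich in ribosomal RNA, were both left out, the log2 fold change was about as large and the call was lost (0.66, adjusted p = 0.0896). That fit keeps 1 control library, which is assumed to vary like the BAFF tumour libraries.

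Cxcl1, known as KC in the mouse, did not pass. It stood at 49.6, 62.2 and 27.9 scaled CPM in BAFF tumours and 71.8, 47.8 and 45.5 in controls, a log2 fold change of -0.28 ± 0.25 (limma adjusted p = 0.489). The groups overlapped, BAFF tumour 3 having the lowest value and control tumour 1 the highest. Without BAFF tumour 3 the log2 fold change took the other sign (0.05, adjusted p = 0.901).

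Cxcl3, a close relative of Cxcl2, varied widely within both groups. It stood at 137, 96.8 and 54.7 scaled CPM in BAFF tumours and 70.6, 39.5 and 94.9 in controls, with means of 96.02 ± 40.9 in BAFF tumours and 68.3 ± 27.8 in controls (SD, n = 3 each). The groups overlapped, and the log2 fold change of 0.48 ± 0.32 did not pass (limma adjusted p = 0.348).

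Reads of Cxcl2 and Cxcl3 may not be fully separable. In GENCODE M21 transcripts the longest stretch identical between them is 157 bases, longer than a read of 101 cycles, while Cxcl1 shares at most 23 bases in a row with either. Converted to reads, the values of the other 7 chemokines came within 0.1 of a whole number in all 6 libraries, and those of Cxcl3 in 0 of 6. Control tumour 2, for example, had 254.31 reads of Cxcl3 and 3129.72 of Cxcl2. The 2 values added up to within 0.1 of a whole number in BAFF tumour 1 and control tumours 2 and 3, and not in BAFF tumour 3 or control tumour 1. For BAFF tumour 2 the deposited digits were too few to tell (rounding error 0.152 reads). The sum of Cxcl2 and Cxcl3 does not depend on how reads are divided between them, but would on any division with other genes. In scaled CPM the sum was 1187, 1140.2 and 803 in BAFF tumours and 657, 526 and 678 in controls, again without overlap.

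Within a library Cxcl2 was also higher relative to Cxcl1, a ratio that scaling between libraries cannot alter. For each CPM of Cxcl1 there were, in CPM of Cxcl2, 21.2, 16.8 and 26.8 in BAFF tumours and 8.16, 10.2 and 12.8 in controls, with no overlap. The ratio of Cxcl3 to Cxcl1 did overlap, at 2.76, 1.56 and 1.96 in BAFF tumours and 0.983, 0.826 and 2.09 in controls. These ratios were chosen after the values were seen and have no test.

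**Figure D1:**
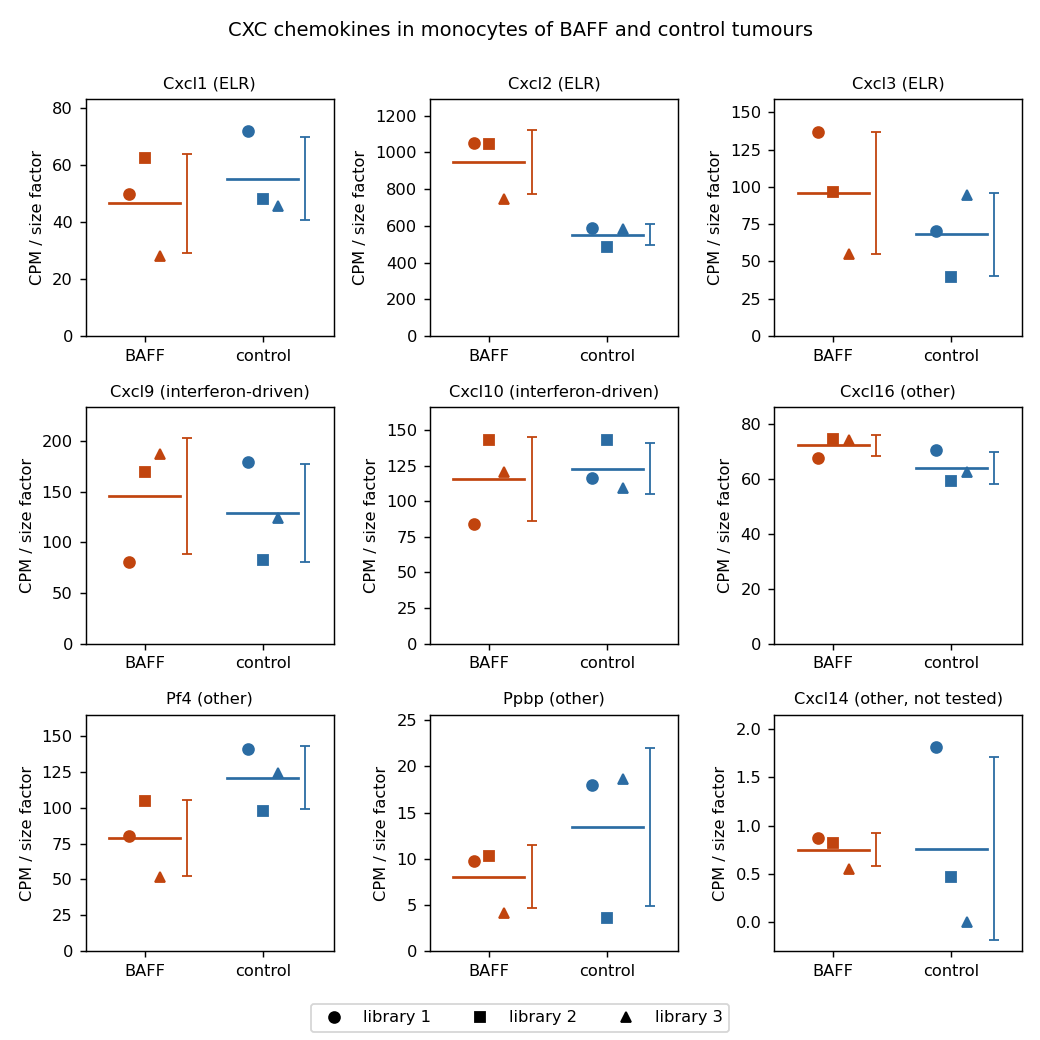
Scaled CPM (linear axes from 0, except that of Cxcl14, which extends below 0 to hold its error bar) of the 9 chemokines in the 3 BAFF tumour and 3 control tumour libraries. Symbols are libraries, horizontal lines means and vertical bars SD; Cxcl2 is at 749 to 1051 in BAFF tumours and 486 to 586 in controls, and for the other 8 genes the groups overlap.

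The plot of all 9 genes by library includes the interferon side, where the groups overlapped for both genes. Cxcl9, known as MIG, stood at 80.97, 169 and 187 scaled CPM in BAFF tumours and 179, 82.8 and 124 in controls. Each group held both low and high libraries, and the log2 fold change was 0.16 ± 0.30 (limma adjusted p = 0.772). Cxcl10, known as IP-10, stood at 84.2, 143 and 121 scaled CPM in BAFF tumours and 116, 143 and 109 in controls. Its log2 fold change was -0.11 ± 0.17 (limma adjusted p = 0.716) with size factors and 0.14 ± 0.32 on the deposited scale, so its sign depended on the scale. The ratio of Cxcl9 to Cxcl10 varied within both groups, at 0.962, 1.19 and 1.55 in BAFF tumours and 1.54, 0.578 and 1.14 in controls.

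Set against each other within a library, the ELR genes and the interferon-driven genes did not separate the groups. The mean log2(scaled CPM + 1) of Cxcl1, Cxcl2 and Cxcl3 minus that of Cxcl9 and Cxcl10 was 1.22, 0.25 and -0.51 in BAFF tumours and -0.003, -0.15 and 0.23 in controls. BAFF tumours held both the highest and the lowest value, with a mean of 0.32 ± 0.86 against 0.02 ± 0.19 in controls (SD, n = 3 each). Cxcl2 by itself exceeded Cxcl10 by more in every BAFF tumour library, the ratio being 12.5, 7.32 and 6.2 in BAFF tumours and 5.04, 3.39 and 5.34 in controls. Against Cxcl9 the ratio overlapped, at 12.98, 6.16 and 4.002 in BAFF tumours and 3.27, 5.87 and 4.7 in controls. No p is given for these combinations, which were chosen with the values known.

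**Figure D2:**
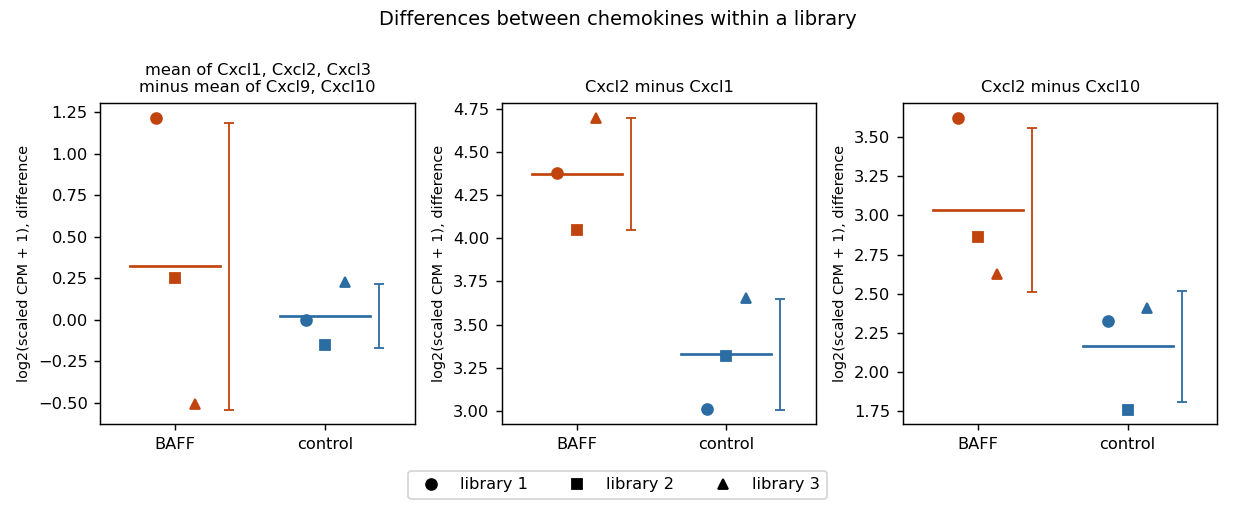
Differences of log2(scaled CPM + 1) between chemokines of the same library (vertical axes) in BAFF and control tumours; symbols are libraries, lines means and bars SD. The ELR genes minus the interferon-driven genes overlap between groups, from -0.51 to 1.22 in BAFF tumours and -0.15 to 0.23 in controls, while Cxcl2 minus Cxcl1 and Cxcl2 minus Cxcl10 do not overlap.

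Pf4, Ppbp, Cxcl16 and Cxcl14 remain. Pf4 (platelet factor 4) is stored in platelet granules and is also transcribed by macrophages. It stood at 80.3, 105 and 51.9 scaled CPM in BAFF tumours and 141, 97.4 and 124 in controls. BAFF tumour 2 lay above control tumour 2, and the log2 fold change of -0.65 ± 0.21 missed the threshold (limma adjusted p = 0.0558). In 3 alternative settings it passed: with upper-quartile factors (-0.69, adjusted p = 0.0437), without BAFF tumour 2 (-0.87, adjusted p = 0.0186) and without control tumour 2 (-0.80, adjusted p = 0.037). In 21 others it did not pass. Among these were the deposited scale (-0.40 ± 0.32, limma adjusted p = 0.562) and the fit without BAFF tumour 3 (-0.37, adjusted p = 0.159).

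Ppbp, the precursor of the ELR chemokine Cxcl7, stood at 9.79, 10.3 and 4.16 scaled CPM in BAFF tumours and 18.02, 3.57 and 18.6 in controls. Control tumour 2 held the lowest value of all 6, and the log2 fold change of -0.48 ± 0.47 did not pass (limma adjusted p = 0.543). Without control tumour 2 it passed (-1.18, adjusted p = 0.0181). Platelet markers were scarce in both groups, the 5 analysed of 12 summing to 6.69, 5.62 and 6.47 in BAFF tumours and 5.78, 4.97 and 6.65 in controls (scaled CPM). The integrin gene Itgb3, which macrophages also transcribe, gave most of this, and Gp5 and Tubb1 were at 0 in at least 1 library. The part of platelets in Pf4 and Ppbp was not tested.

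Cxcl16 is a membrane-bound chemokine whose shed form binds Cxcr6. It stood at 67.9, 74.8 and 74.4 scaled CPM in BAFF tumours and 70.5, 59.2 and 62.5 in controls, a log2 fold change of 0.18 ± 0.10 that did not pass (limma adjusted p = 0.275). BAFF tumour 1 lay among the controls. Cxcl14, best known from epithelia and fibroblasts, was too low to be tested. It came to 9, 26 and 6 reads in BAFF tumours 1, 2 and 3 and 63, 3 and 0 in control tumours 1, 2 and 3. In scaled CPM that is 0.873, 0.826 and 0.555 in BAFF tumours and 1.82, 0.466 and 0 in controls, and the count of 0 in control tumour 3 allows up to 0.635 CPM as deposited, for counting error only. Fibroblast markers were also highest in control tumour 1, their 7 genes summing to 56.4, 33.6 and 34.6 in BAFF tumours and 203, 39.9 and 50.2 in controls (scaled CPM), and their part in the Cxcl14 values was not tested.

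**Figure D3:**
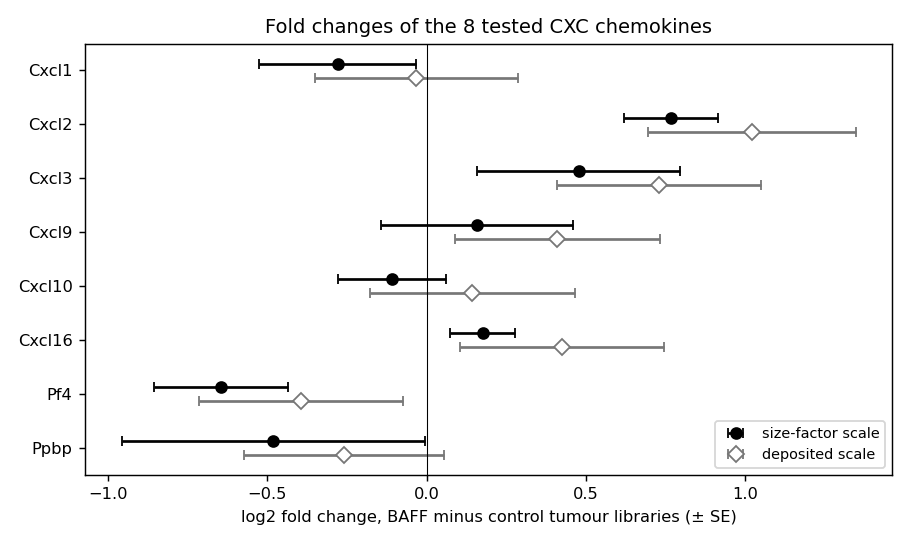
Log2 fold changes, BAFF minus control tumour libraries, of the 8 tested chemokines (horizontal axis), with SE as bars; filled circles are values with size factors and open diamonds those on the deposited scale. Cxcl2 is the only gene past the threshold, at 0.77 and 1.02, and Cxcl10 is at -0.11 on the first scale and 0.14 on the second.

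The plot of log2 fold changes compares groups for each gene. Levels of different genes are ranked here per kilobase of exon, while the ratios and differences above were not corrected for length. The length is the union of all exons in GENCODE M21 gene models, which may differ from the authors' models and from the transcripts present. Cxcl2 came first at 458 ± 83.4 scaled CPM per kilobase in BAFF tumours and 267 ± 27.5 in controls (SD, n = 3 each). Pf4 followed at 109.5 ± 36.7 scaled CPM per kilobase in BAFF tumours and 167 ± 30.4 in controls, and no library of Pf4 reached the lowest of Cxcl2. Cxcl10 was at 51.4 ± 13.1 scaled CPM per kilobase in BAFF tumours and 54.6 ± 7.94 in controls. Cxcl9 was at 48.3 ± 18.8 scaled CPM per kilobase in BAFF tumours and 42.7 ± 16.1 in controls, and these neighbours overlapped in both groups. Cxcl1 was at 24.8 ± 9.25 scaled CPM per kilobase in BAFF tumours and 29.4 ± 7.78 in controls. Cxcl3 was at 27.5 ± 11.7 scaled CPM per kilobase in BAFF tumours and 19.5 ± 7.94 in controls, and Cxcl16 at 23.95 ± 1.28 scaled CPM per kilobase in BAFF tumours and 21.2 ± 1.93 in controls. Those 3 overlapped in BAFF tumours, while in controls every library of Cxcl1 lay above every library of Cxcl16. Ppbp was at 7.45 ± 3.13 scaled CPM per kilobase in BAFF tumours and 12.4 ± 7.87 in controls, and Cxcl14 was last at 0.411 in BAFF tumours and 0.417 in controls.

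The other CXC chemokines in the table were low, and 0 of 2 tested passed in limma. Cxcl11, an interferon-driven ligand of Cxcr3, stood at 0.873, 2.51 and 1.29 scaled CPM in BAFF tumours and 1.24, 0.777 and 1.58 in controls (log2 fold change 0.18 ± 0.26, limma adjusted p = 0.684). Cxcl12, which retains leukocytes through Cxcr4, stood at 1.55, 0.191 and 1.2 scaled CPM in BAFF tumours and 2.08, 0.621 and 0.632 in controls (-0.09 ± 0.33, adjusted p = 0.883). Cxcl5, an ELR chemokine, came to 5, 20 and 1 reads in BAFF tumours 1, 2 and 3 and 19, 3 and 0 in control tumours 1, 2 and 3 and was not tested. Cxcl13, Cxcl15 and Cxcl17 are not analysed here.

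Among the receptors for these ligands 5 of 8 were tested, of which 1 rose and 1 fell, beside 7.18% of all tested genes higher and 9.91% lower. Cxcr4, the receptor of Cxcl12, rose, at 381, 326 and 389.98 scaled CPM in BAFF tumours and 210.1, 206 and 168 in controls (log2 fold change 0.91 ± 0.12, limma adjusted p = 0.000376). Cxcr3, the receptor of Cxcl9 and Cxcl10, fell at a low level, at 0.582, 0.413 and 0.647 scaled CPM in BAFF tumours and 1.76, 2.02 and 1.26 in controls (-0.79 ± 0.21, adjusted p = 0.0237). That call held in 2 of 6 fits that left out 1 library and not on the deposited scale (limma adjusted p = 0.188). Cxcr2, through which the ELR chemokines act, stood at 5.72, 2.79 and 5.09 scaled CPM in BAFF tumours and 2.86, 1.09 and 2.53 in controls. Its log2 fold change was 0.82 ± 0.27 with size factors (limma adjusted p = 0.0624) and 0.99 ± 0.31 on the deposited scale, where it passed (adjusted p = 0.0291). Cxcr6, the receptor of Cxcl16, was at -0.10 ± 0.26 and the scavenger Ackr3 at 0.26 ± 0.26, neither past the test. Cxcr5 was too low to test, and Cxcr1 and Ackr1 are not analysed here.

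Genes of the NF-kB route to the ELR chemokines were higher in BAFF tumours where they passed. Among 18 tested genes 6 rose and 0 fell, beside the 7.18% of all tested genes that rose, and their median log2 fold change was 0.35. Tlr2, a receptor for bacterial lipoproteins, stood at 454, 478 and 513 scaled CPM in BAFF tumours and 312, 229 and 288 in controls (0.81 ± 0.12, limma adjusted p = 0.00103). Il17ra, a receptor chain for interleukin 17, stood at 122, 97.8 and 94.1 scaled CPM in BAFF tumours and 67.4, 57.6 and 67.9 in controls (0.69 ± 0.12, adjusted p = 0.00211). The NF-kB subunit genes Nfkb2 (0.54 ± 0.10) and Nfkb1 (0.57 ± 0.12) rose too. The inducers did not pass, with Il1b at 0.51 ± 0.18, Tnf at -0.02 ± 0.17 and Il1a at -0.20 ± 0.31, named after their values were seen. On the deposited scale 1 of the 18 passed, Tlr2, beside 1.81% of all tested genes higher.

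Genes of the interferon route to Cxcl9 and Cxcl10 were called in both directions. Among 28 tested genes 6 rose, 2 fell and 20 did not pass, beside 7.18% of all tested genes higher and 9.91% lower, and the median log2 fold change was 0.03. With size factors the share that fell was thus no higher than among all genes, while the share that rose was higher. Jak2, a kinase of the interferon gamma receptor, stood at 125, 122 and 139 scaled CPM in BAFF tumours and 73.4, 89.3 and 69.2 in controls (0.74 ± 0.11, limma adjusted p = 0.00105). The chains of the type I interferon receptor, Ifnar1 (0.49 ± 0.10) and Ifnar2 (0.43 ± 0.11), rose as well, the second of them in 3 of 6 fits that left out 1 library. Ifit3, a target of type I interferon, fell, at 39.5, 45.4 and 42.1 scaled CPM in BAFF tumours and 70.4, 91.3 and 67.3 in controls (-0.83 ± 0.12, limma adjusted p = 0.000914). The transcription factor gene Irf1 (-0.17 ± 0.24) and the ligand gene Ifng (-0.12 ± 0.42), named after their values were seen, did not pass. On the deposited scale 1 gene rose and 0 fell, beside 1.81% of all tested genes higher and 3.5% lower.

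**Figure D4:**
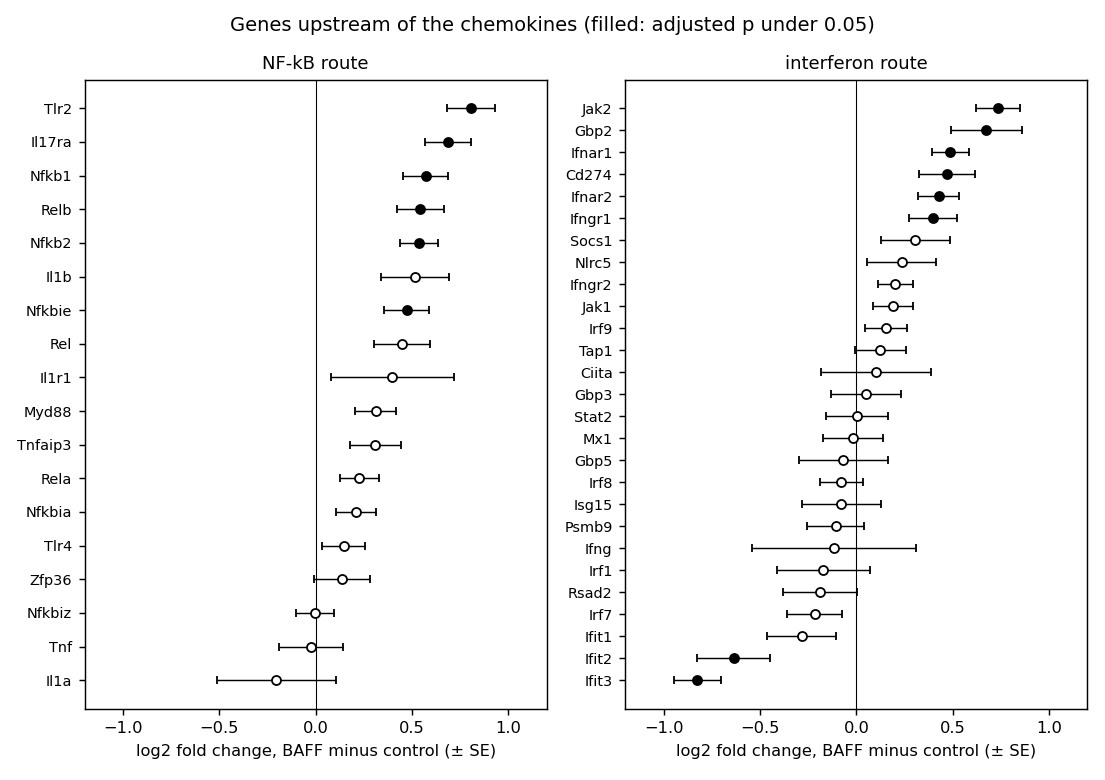
Log2 fold changes, BAFF minus control tumour libraries with SE (horizontal axes), of the tested genes of the NF-kB route (left) and of the interferon route, except 1 that did not pass (right), after size factors; filled points passed the test. On the left 6 of 18 genes are filled and lie above 0, and on the right 6 filled genes lie above 0 and Ifit2 and Ifit3 below.

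Unlike the plot of both routes, which draws listed genes, the next set follows from sequence. Of the 14 genes whose window holds GGGAATTTCCC 5 were tested. They are Cxcl1, Cxcl2 and Cxcl3, from which the sequence was taken, and Zfp84 at 0.25 ± 0.17 and Il16 at -0.40 ± 0.29, neither of which passed. This set was chosen after the values were seen.

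Other lists of transcripts were also compared between BAFF and control tumours. Of 13 early response and dissociation genes 5 rose and 0 fell, beside 7.18% of all tested genes higher. On the deposited scale 3 rose, beside 1.81% of all tested genes. Their sum was 5873, 5349 and 5580.5 in BAFF tumours and 3833, 4031 and 4615 in controls (scaled CPM). The stress gene Ier3 (0.75 ± 0.11) and the transcription factor gene Atf3 (0.45 ± 0.10), which did not pass on the deposited scale (limma adjusted p = 0.236), were among them, as were Hspa1b (0.83 ± 0.14) and Hspa1a (0.79 ± 0.15), heat shock genes so alike that their separate values are uncertain. Monocyte markers summed to 8718, 9518 and 8894 in BAFF tumours and 7772, 6058 and 7869.9 in controls, and of 8 genes Cd14 (0.64 ± 0.14, limma adjusted p = 0.00948) and Ccr2 (0.51 ± 0.15, adjusted p = 0.0339) rose. Their calls held in 5 of 6 and 1 of 6 fits that left out 1 library, and neither passed on the deposited scale (limma adjusted p = 0.0886 for Cd14 and 0.181 for Ccr2), where 0 of the 8 did. The 2 of 8 stand beside 7.18% of all tested genes higher.

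Summed in scaled CPM, neutrophil markers came to 159, 121 and 123 in BAFF tumours and 107, 62.4 and 85.6 in controls. Csf3r alone gave 65.6, 76.2 and 95.3 of this in BAFF tumours and 64.5, 48.8 and 53.7 in controls. Of 5 tested markers 2 rose. They were Csf3r (0.49 ± 0.14, limma adjusted p = 0.0354) and Retnlg (0.63 ± 0.20, adjusted p = 0.0499), each in 2 of 6 fits that left out 1 library. Both calls were lost on the deposited scale (limma adjusted p = 0.19 for Csf3r and 0.0984 for Retnlg) and the other 3 tested markers passed, among them Lcn2 (1.23 ± 0.30, adjusted p = 0.00222) and S100a8 (1.11 ± 0.31, adjusted p = 0.0125). These counts stand beside 7.18% of all tested genes higher with size factors and 1.81% on the deposited scale. Ly6g, Ngp, Camp and Elane are not analysed here, and Mpo was at 0 in at least 1 library. The 9 melanoma markers, summed likewise, came to 152, 128 and 72.1 in BAFF tumours and 539, 445 and 591 in controls, and 7 of 8 tested fell, beside 9.91% of all tested genes, such as Dct (-2.32 ± 0.19) and Tyrp1 (-2.10 ± 0.22). Markers of T and NK cells, on which Cxcl9 and Cxcl10 act, came to 23.4, 23.6 and 34.1 in BAFF tumours and 33.3, 18.2 and 18.95 in controls. None of the 10 tested passed in limma. Beside 3919 of all 12824 tested genes with an unadjusted limma p under 0.05, 1 of the 10 had one, Gzmb (0.76 ± 0.26, adjusted p = 0.0668). The part of these transcripts and of other cells in the chemokine values was not tested.

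By pattern over the 6 libraries, among 9096 genes averaging at least 5 CPM, the genes most like Cxcl2 were Gsr (Pearson r = 0.997), Exoc5 (0.996), Sgms1 (0.995), Cmas (0.994) and Vapa (0.994). Gsr encodes glutathione reductase and stood at 116, 115 and 76.2 scaled CPM in BAFF tumours and 55.98, 49.2 and 58.1 in controls. The genes most like Cxcl9 were Fam49a (0.989), Tlr1 (0.972), Zfp638 (0.972), G6pdx (0.972) and Clec12a (0.9602). Tlr1 encodes a partner of the Tlr2 receptor, G6pdx an enzyme of the pentose phosphate route and Clec12a an inhibitory lectin. Those most like Cxcl16 were Abi3 (0.997), the predicted genes Gm37033 (0.997) and Gm2999 (0.986), Il10ra (0.992), which encodes an interleukin 10 receptor chain, and Spn (0.989), which encodes CD43. Over the 28 pairs of the 8 tested chemokines r ran from -0.69 for Cxcl3 with Cxcl10 to 0.85 for Cxcl1 with Pf4. The next highest were Cxcl9 with Cxcl16 (0.76), Pf4 with Ppbp (0.73) and Cxcl2 with Cxcl3 (0.73), while Cxcl1 with Cxcl2 was at 0.03 and Cxcl9 with Cxcl10 at 0.34. These are descriptions over 6 libraries that share depth and the 2 groups.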

How the data were processed

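The authors deposited 1 table of CPM for 18341 genes and 6 libraries. The unit was read from the values: in each library 84.9% to 86.4% of low values were, to within 0.02, multiples of 1 common step, too few for a count model. Per the submitters' processing notes, which give no roles, the tools were Partek, Bowtie2 (2.2.5) and STAR (2.4.1d). For build, annotation and counting rule the sources name nothing. The column "Conrol 2" was taken as control tumour 2. Within groups no libraries were alike to within sampling noise (smallest chi-square per degree of freedom 7.31).

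Median-of-ratios size factors (1.07, 1.14 and 1.07 for BAFF tumours, 1.27, 0.904 and 0.6701 for controls) were computed on the 12824 genes averaging 1 CPM or above. limma-trend (limma 3.58.1, R 4.3.3) was run on log2(scaled CPM + 1), Benjamini-Hochberg adjusted over all of them, threshold 0.05. The pseudocount of 1 understates changes of low genes. Size factors were preferred because on the deposited scale limma's prior degrees of freedom are infinite, so that no gene keeps its own spread. In simulated reads of the same 12824 genes for BAFF against control tumours, 45% of true log2 changes of 1 and 97% of those of 2 were recovered, with 6 false calls. The simulation gave all genes 1 assumed dispersion and changed 100 genes of each size, fewer than were called in the data. These shares therefore need not hold for the data. Alternatives were the deposited scale, TMM and upper-quartile factors, other filters and pseudocounts, limma without trend or with robust hyperparameters, a replicate block, and single libraries left out. 2 further sets of left-out libraries were chosen after seeing the data. The members and lists were chosen with earlier results of these data known.

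Genes named are all members, the other CXC chemokines and the receptors, up to 4 genes with the smallest p of each other list (for markers also the most abundant), and the 5 most alike in pattern to each of Cxcl2, Cxcl9 and Cxcl16. Others are marked as named after their values were seen. 1 gene of the interferon list enters its counts and median but is not reported here by itself.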

Additional observations from a re-analysis of the deposited data

How the results depend on the processing

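Size factors gave 2192 called genes (921 higher, 1271 lower). The deposited scale gave 681 (232 and 449), with the replicate block 608 (170 and 438). A filter at 5 CPM left 9096 genes to test and gave 1367, of which 730 lower. Run without trend, limma gave 576 higher. Without control tumours 2 and 3 there were 1100 (284 and 816), and with the 4 shallow libraries 947 (361 and 586). Leaving out 1 library, over both scales, gave 170 to 5149 called, 34 to 4615 higher and 131 to 1172 lower. The highest count was that of the deposited scale without control tumour 1. The deposited scale shifts the median of all tested genes to 0.23 (log2). The causes were not tested.

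Cxcl2 was positive in every setting run. With 1 library left out, over both scales, it ranged from 0.67 to 1.30. On the deposited scale the call was lost without BAFF tumour 1 (adjusted p = 0.38), BAFF tumour 2 (adjusted p = 0.455), BAFF tumour 3 (adjusted p = 0.128) or control tumour 2 (adjusted p = 0.383). Without control tumours 2 and 3 together it was 0.66. The same ranges were -0.52 to 0.40 for Cxcl1, 0.13 to 1.10 for Cxcl3, -0.13 to 0.91 for Cxcl9, -0.27 to 0.37 for Cxcl10, 0.12 to 0.73 for Cxcl16, -0.87 to -0.044 for Pf4 and -1.18 to 0.29 for Ppbp. On the deposited scale without control tumour 1 Cxcl9 passed at 0.91, Cxcl16 at 0.73 and Cxcl3 at 1.03, and Cxcl3 also without control tumour 3 (0.78). Cxcl9 was at -0.40 without control tumours 2 and 3, Cxcl10 at 0.14 on the deposited scale with or without the block, and Pf4 at -0.69 with upper-quartile factors.

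Among other genes the sign turned for some that did not pass with size factors. Of the turned values, 0.77 for Col3a1 (limma adjusted p = 0.00693) and 0.56 for Clec12a (adjusted p = 0.0382) passed. Both came from the deposited scale without control tumour 1, a fit that called 4615 of 12591 genes higher. The ranges that follow cover both scales. With 1 library left out the ranges were -0.067 to 0.54 for Cxcl11, -0.31 to 0.30 for Cxcl12, -0.36 to 0.36 for Cxcr6, -0.56 to 0.081 for Mmp12, -0.53 to 0.0080 for Cd8b1, -0.062 to 0.78 for Trac, -1.26 to 0.22 for Col1a2, -1.25 to 0.77 for Col3a1, -0.45 to 0.059 for Vwf, -0.53 to 0.035 for Cdh5, -0.022 to 0.67 for Tlr1, -0.046 to 0.57 for G6pdx and -0.17 to 0.56 for Clec12a. On the deposited scale, with or without the block, Cxcr6 was at 0.039 and Clec12a at 0.23. With the 4 shallow libraries Cxcl11 was at -0.046, Cxcr6 at 0.15, Col3a1 at 0.45 and Clec12a at 0.017. Without control tumours 2 and 3 Trac was at -0.11, Fam49a at -0.17, Tlr1 at -0.16, Zfp638 at -0.067 and G6pdx at -0.15. With upper-quartile factors Zfp638 was at -0.00585 and G6pdx at -0.035, and with a filter at 5 CPM G6pdx was at -0.0285.

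Replicate numbers did not pair the libraries: deviations of libraries with the same number correlated at -0.0494, 0.0523 and -0.0387, and 1 of the 3 BAFF tumour libraries correlated best with its own number. With the replicate block 1940 genes were called and Cxcl2 stayed at 0.77 (limma adjusted p = 0.011). At 4.72 reads per CPM, the shallowest library limits what can be said of Cxcl14, Cxcl5, Cxcl11 and Cxcr3.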

Other observations

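Proteins that carry or cut chemokines were a further group. Of 8 tested genes 2 rose and 0 fell, beside 7.18% of all tested genes higher. Srgn, whose proteoglycan serglycin binds Pf4 and other chemokines in granules, stood at 1318, 1128 and 904 scaled CPM in BAFF tumours and 559, 614 and 612 in controls (log2 fold change 0.89 ± 0.14, limma adjusted p = 0.00119). Adam17, a sheddase, stood at 178, 198 and 187 scaled CPM in BAFF tumours and 158, 136 and 133 in controls (0.40 ± 0.10, adjusted p = 0.0177), a call that held in 3 of 6 fits that left out 1 library and not on the deposited scale (limma adjusted p = 0.287). The proteases Mmp12 (-0.43 ± 0.16) and Mmp8 (0.29 ± 0.16) did not pass.

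Among 7 markers of dendritic cells, which also make Cxcl9, 1 rose and 0 fell, beside 7.18% of all tested genes higher and 9.91% lower. Their median log2 fold change was -0.11, and 3 of the 7 were positive. Flt3 rose, at 4.17, 3.21 and 3.79 scaled CPM in BAFF tumours and 1.85, 1.09 and 1.9 in controls (0.87 ± 0.20, limma adjusted p = 0.0114). Xcr1 (-0.66 ± 0.27), Fscn1 (-0.43 ± 0.21), Siglech (0.35 ± 0.18) and Ccr7 (0.23 ± 0.17) did not pass. Of 4 tested endothelial markers Kdr (0.65 ± 0.15) and Pecam1 (0.63 ± 0.16) rose, in 5 of 6 and 3 of 6 fits that left out 1 library. Neither passed on the deposited scale (limma adjusted p = 0.0808 for Kdr and 0.0896 for Pecam1). The other 2, Vwf (-0.30 ± 0.20) and Cdh5 (-0.34 ± 0.25), lay below 0 and did not pass. The median of the 4 was 0.16, and the 2 that rose stand beside 7.18% of all tested genes higher. Of 7 fibroblast markers 1 fell, beside 9.91% of all tested genes lower. It was Col1a1 (-1.14 ± 0.35, limma adjusted p = 0.0411, in 3 of 6 fits that left out 1 library, and adjusted p = 0.0641 on the deposited scale). Col1a1 stood at 12.02, 6.57 and 7.77 scaled CPM in BAFF tumours and 41.3, 13.7 and 13.9 in controls, control tumour 1 being far the highest. Of 5 keratinocyte markers 0 were tested.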
